A study of Homo sapiens with 8 samples.

Results

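The let-7 and miR-98 guide strands are 9 mature microRNAs (miRNAs), listed in the table as hsa-let-7a-5p, hsa-let-7b-5p, hsa-let-7c-5p, hsa-let-7d-5p, hsa-let-7e-5p, hsa-let-7f-5p, hsa-let-7g-5p, hsa-let-7i-5p and hsa-miR-98-5p. They were chosen by name from the 2026 entries of a small RNA count table, and the choice used no measured value. All 9 were among the 570 entries with enough reads to be tested. The cells were HCT116, an established human colorectal cancer line, grown as spheroids in serum-free medium and separated in a cell sorter into CD44v6-positive cells (2 samples) and CD44v6-negative cells (2 samples). CD44v6 is a variant of CD44, the cell surface receptor for hyaluronan, that carries the variable exon-encoded stretch v6 and serves to mark stem-like cells in colorectal tumours. The study asked which miRNAs go with such cells. Both groups came from spheroids of the same line. Separate cultures are not mentioned in the labels, so a p-value here covers the variation among the deposited samples and possibly no more than technical variation.

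The let-7 family is one of the most conserved miRNA families. The guide strand, which lies in the 5′ arm of each hairpin, is loaded into an Argonaute protein and pairs through its seed with messenger RNAs that include those of RAS genes, HMGA2, MYC and LIN28. The RNA-binding proteins LIN28A and LIN28B in turn block maturation of let-7 precursors. Mature let-7 is low in stem cells and rises as cells differentiate, and for that reason the family is often examined in cells sorted as stem-like.

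The mature sequences are shown because the members differ by so few bases that reads can be hard to assign. They come from RefSeq (GRCh38.p14), 5′ to 3′, and the capitals mark the seed, bases 2 to 8.
let-7a-5p: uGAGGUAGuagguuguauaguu
let-7b-5p: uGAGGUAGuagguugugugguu
let-7c-5p: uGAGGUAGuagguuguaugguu
let-7d-5p: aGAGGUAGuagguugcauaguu
let-7e-5p: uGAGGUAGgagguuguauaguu
let-7f-5p: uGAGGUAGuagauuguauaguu
let-7g-5p: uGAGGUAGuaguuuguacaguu
let-7i-5p: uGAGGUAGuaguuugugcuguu
miR-98-5p: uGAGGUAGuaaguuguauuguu

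All 9 have 22 bases and 1 common seed. Positions are counted from 1 at the 5′ end and the base of let-7a-5p is given first. let-7c-5p differs from let-7a-5p by A19G, let-7e-5p by U9G and let-7f-5p by G12A. let-7b-5p differs by A17G and A19G, miR-98-5p by G11A and A19U, let-7d-5p by U1A and U16C, and let-7g-5p by G12U and U18C. let-7i-5p differs at 4 bases, by G12U, A17G, U18C and A19U. Of the 36 pairs of members, 4 differ at 1 base and 10 at 2 bases. How the authors' counting treated mismatches and reads with several matches is not given in the sources, so reads of such pairs could not be assigned with certainty. This bears most on let-7c-5p, which lies 1 base from both let-7a-5p and let-7b-5p and had few reads. Outside the 9, the seed also occurs in miR-4458, with 0 and 0 reads in the CD44v6-positive samples against 13 and 26 in the CD44v6-negative samples, and in miR-4500, with 0 reads in all samples. Almost all reads with the let-7 seed therefore carried the names of the 9 guides.

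The guides come from 12 hairpins (GRCh38). let-7a-5p has 3 copies, on chromosomes 9, 11 and 22, and let-7f-5p has 2, on chromosomes 9 and X, so their reads cannot be placed at 1 locus. MIRLET7A1, MIRLET7F1 and MIRLET7D lie together on chromosome 9 (plus strand), in an intron of the long noncoding RNA gene AL158152.2. MIRLET7A3 and MIRLET7B lie in exons of MIRLET7BHG on chromosome 22, and MIR98 and MIRLET7F2 in introns of HUWE1, a ubiquitin ligase gene, on chromosome X. MIRLET7A2, MIRLET7C and MIRLET7E are in introns of MIR100HG, MIR99AHG and SPACA6, MIRLET7G is in an intron of WDR82, and MIRLET7I in an intron of AC048341.1.

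Depth differed between the groups. Totals were 919802 and 154481 reads for CD44v6-positive samples 1 and 2, against 7880631 and 4592278 for CD44v6-negative samples 1 and 2. A count of 0 allows up to 3 reads, which is 3.26 and 19.4 CPM (reads per 1000000 reads) in the CD44v6-positive samples, against 0.381 and 0.653 CPM in the CD44v6-negative samples. The miRNA markers of colorectal epithelium (5 of 5 in the table) summed to 23384 and 27084 CPM, against 26869 and 33802 CPM. Single markers went different ways. The largest, miR-31-5p, was at 13108 and 16934 CPM, against 11566 and 20380 CPM. miR-141-3p was at 1955 and 1456 CPM, against 7435 and 6421 CPM, and miR-200c-3p at 7184 and 2738 CPM, against 6539 and 5320 CPM. miR-192-5p was at 1039 and 5664 CPM, against 1252 and 1587 CPM, and miR-194-5p at 97.8 and 291 CPM, against 77.2 and 94.3 CPM. CD44v6 itself is not read by a miRNA table. CD44v6-positive sample 2 stood apart in some miRNAs of other tissues. Liver miR-122-5p had 117 reads there (757 CPM) and 45 reads (48.9 CPM) in CD44v6-positive sample 1, against 3.05 and 4.79 CPM in the CD44v6-negative samples. Red blood cell miR-451a was at 15.2 and 350 CPM in CD44v6-positive samples 1 and 2, against 16.5 and 9.15 CPM. From the same list, miR-144-3p was at 2.17 and 45.3 CPM, against 1.90 and 2.61 CPM. The more abundant miR-486-5p and miR-16-5p of that list did not set CD44v6-positive sample 2 apart. miR-486-5p was at 3716 and 3865 CPM, against 1973 and 1548 CPM, and miR-16-5p at 7665 and 8279 CPM, against 5727 and 14513 CPM. Stromal miR-143-3p was at 751 and 6176 CPM, against 719 and 799 CPM. Another stromal marker, miR-145-5p, was lowest in CD44v6-positive sample 2, at 101 and 71.2 CPM in CD44v6-positive samples 1 and 2, against 119 and 237 CPM. All miRNAs of the marker lists were in the table. Red blood cell and serum markers (4 miRNAs) summed to 11398 and 12539 CPM, against 7718 and 16073 CPM, stromal markers (3) to 921 and 6415 CPM, against 882 and 1097 CPM, and neural markers (2) to 844 and 544 CPM, against 1313 and 1136 CPM. Endothelial miR-126-3p was at 173.95 and 174.8 CPM, against 223 and 320.1 CPM. The myeloid markers (2) summed to 13.0 and 32.4 CPM, against 11.4 and 25.3 CPM, and the muscle markers (2) to 6.52 and 0 CPM, against 1.40 and 0 CPM. Their part in the results below was not tested, and values without CD44v6-positive sample 2 are given where a result rests on it.

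Together the 9 guides took a similar part of the miRNA reads in both groups. They held 13.9% and 12.6% of all reads in the CD44v6-positive samples (exact Clopper-Pearson 95% intervals 13.8 to 14.0 and 12.4 to 12.8), against 14.3% and 11.1% in the CD44v6-negative samples (14.3 to 14.3 and 11.0 to 11.1). The CD44v6-positive samples thus lay between the CD44v6-negative ones. The means were 13.3 ± 0.937% and 12.7 ± 2.31% (SD, n = 2 each), a difference of 0.571 percentage points, smaller than either SD. Intervals cover only counting error, with each read taken as independent. PCR copies are not independent molecules, so the intervals are too narrow where reads are such copies.

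let-7a-5p and let-7f-5p made up most of this pool. let-7a-5p held 53.9% and 48.2% of the guide reads in the CD44v6-positive samples, against 57.6% and 47.5% in the CD44v6-negative samples. let-7f-5p held 16.9% and 24.1%, against 18.1% and 24.2%. In both groups sample 1 was higher in let-7a-5p and sample 2 in let-7f-5p. The reads of let-7a-5p over those of let-7f-5p came to 3.18 and 2.00 in CD44v6-positive samples 1 and 2, against 3.18 and 1.96 in CD44v6-negative samples 1 and 2. The balance of the leading pair thus differed between samples of a group and hardly between the groups.

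**Figure D1:**
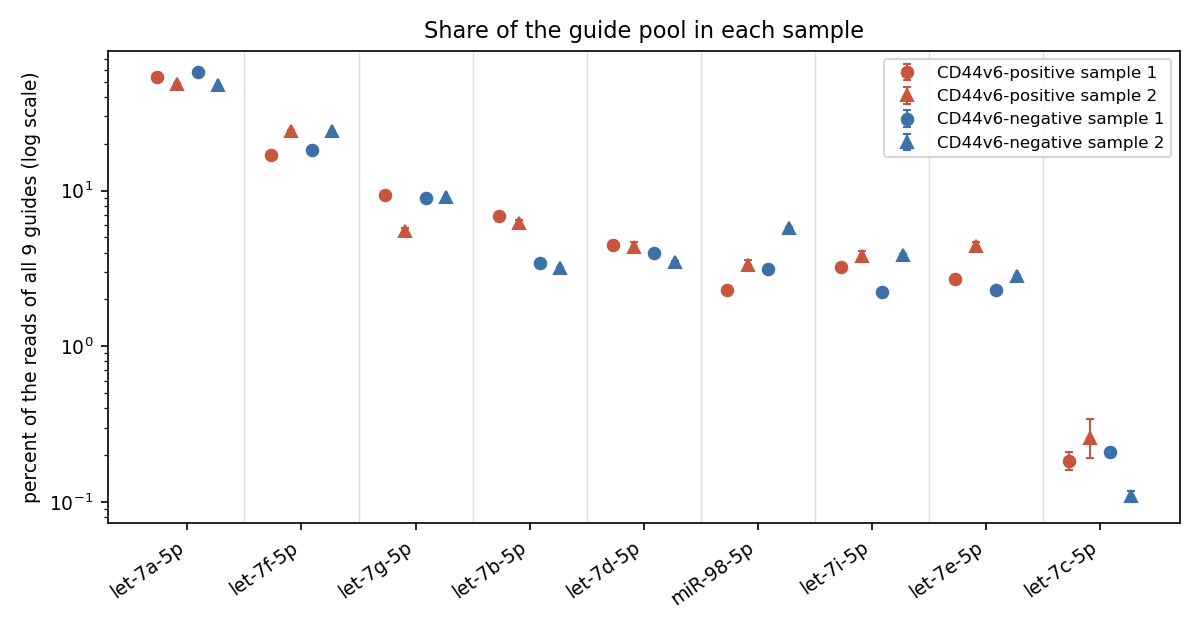
Percent of the reads of all 9 guides held by each guide (vertical axis, log scale) in CD44v6-positive samples 1 and 2 and CD44v6-negative samples 1 and 2, with exact Clopper-Pearson 95% intervals as bars. let-7b-5p held 6.90% and 6.16% in CD44v6-positive samples, above the 3.45% and 3.16% in CD44v6-negative samples, whereas let-7a-5p and let-7f-5p overlapped.

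The largest difference in share, relative to the spread, was that of let-7b-5p, whose hairpin sits beside MIRLET7A3 on chromosome 22. It held 6.90% and 6.16% of the guide reads in the CD44v6-positive samples (95% intervals 6.76 to 7.04 and 5.82 to 6.50), against 3.45% and 3.16% in the CD44v6-negative samples (3.41 to 3.48 and 3.11 to 3.21). The means were 6.53 ± 0.525% and 3.30 ± 0.200% (SD, n = 2 each), a ratio of 1.98. Both CD44v6-positive samples lay above both CD44v6-negative samples. The exact two-sided permutation test gave p = 0.333, the smallest that 2 samples against 2 allow (adjusted over the 9 shares, 1). The difference of 3.22 percentage points was 3.60 without CD44v6-positive sample 2 and 2.85 without CD44v6-positive sample 1. Set against let-7a-5p alone, let-7b-5p had 0.128 reads per let-7a-5p read in each CD44v6-positive sample, against 0.0599 and 0.0666 in the CD44v6-negative samples.

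let-7d-5p was the other member whose shares did not overlap. It held 4.47% and 4.36% in the CD44v6-positive samples, against 3.98% and 3.48% in the CD44v6-negative samples. This small gap depended on the denominator: with let-7a-5p left out of the pool, let-7d-5p overlapped, at 9.69% and 8.42% against 9.38% and 6.63%. That makes 2 of 9 members without overlap, both higher, against 49.5% of all tested miRNAs taken relative to the guide pool, of which 23.5% were higher and 26% lower. The number of members without overlap was thus no greater than in the table at large.

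miR-98-5p had a lower mean share, with overlap. It held 2.29% and 3.34% in the CD44v6-positive samples, against 3.12% and 5.76% in the CD44v6-negative samples. With let-7a-5p left out of the pool the groups separated, at 4.96% and 6.43% against 7.35% and 11.0%. How many of all tested miRNAs separate relative to that smaller pool was not computed. The ratio of let-7b-5p to miR-98-5p reads was 3.01 and 1.85 in the CD44v6-positive samples, against 1.105 and 0.549 in the CD44v6-negative samples. These members had the highest and the lowest log2 fold change of the 9 in the same data. The lack of overlap in their ratio is therefore no separate result.

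The remaining members overlapped in their share of the whole pool. let-7g-5p, from WDR82, held 9.40% and 5.46% in the CD44v6-positive samples, against 9.01% and 9.07% in the CD44v6-negative samples, so CD44v6-positive sample 2 alone was low. The difference in mean share was -1.61 percentage points, and 0.363 without that sample. let-7e-5p held 2.70% and 4.39%, against 2.30% and 2.82%, and the same sample was high. Here the difference was 0.985 percentage points, and 0.142 without CD44v6-positive sample 2. With let-7a-5p left out of the pool let-7e-5p separated, at 5.86% and 8.47% against 5.43% and 5.37%, again with no count over all tested miRNAs. let-7i-5p held 3.25% and 3.80%, against 2.24% and 3.88%, with CD44v6-negative sample 1 lowest. let-7c-5p held 0.183% and 0.257%, against 0.209% and 0.109%. It was the smallest member in every sample and rested on 234 and 50 reads in the CD44v6-positive samples, against 2355 and 551 reads in the CD44v6-negative samples.

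Levels per library were set by CPM scaled with TMM, a trimmed-mean scaling between libraries. Its factors were 1.01 and 1.24 in the CD44v6-positive samples, against 0.6635 and 1.20 in the CD44v6-negative samples. A lower factor raises the scaled CPM, so CD44v6-negative sample 1 was raised relative to the others. The members have the same length, but adapter ligation favours some RNA ends, so the order below compares reads rather than molecules. let-7a-5p was the highest of the 9 in each sample, at 74445 and 48831 CPM in the CD44v6-positive samples, against 124333 and 43709 CPM in the CD44v6-negative samples. Among all tested miRNAs it ranked 4 and 4 in the CD44v6-positive samples, against 3 and 5 in the CD44v6-negative samples. let-7f-5p came second, at 23382 and 24410.3 CPM, against 39127 and 22278 CPM. Both groups overlapped for both miRNAs, with CD44v6-negative sample 1 highest on this scale.

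The middle of the order was close. let-7g-5p was at 12993 and 5539.7 CPM in the CD44v6-positive samples, against 19458 and 8347 CPM in the CD44v6-negative samples. let-7b-5p was at 9533 and 6243 CPM, against 7442 and 2910.03 CPM, and let-7d-5p at 6172 and 4424 CPM, against 8595 and 3203 CPM. Neighbours from let-7g-5p down to let-7e-5p did not differ beyond their spread over the samples. let-7i-5p was at 4489 and 3856 CPM, against 4839 and 3565 CPM, and let-7e-5p at 3736 and 4451 CPM, against 4972 and 2595 CPM. let-7c-5p was far below, at 253 and 261 CPM, against 451 and 99.9 CPM.

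**Figure D2:**
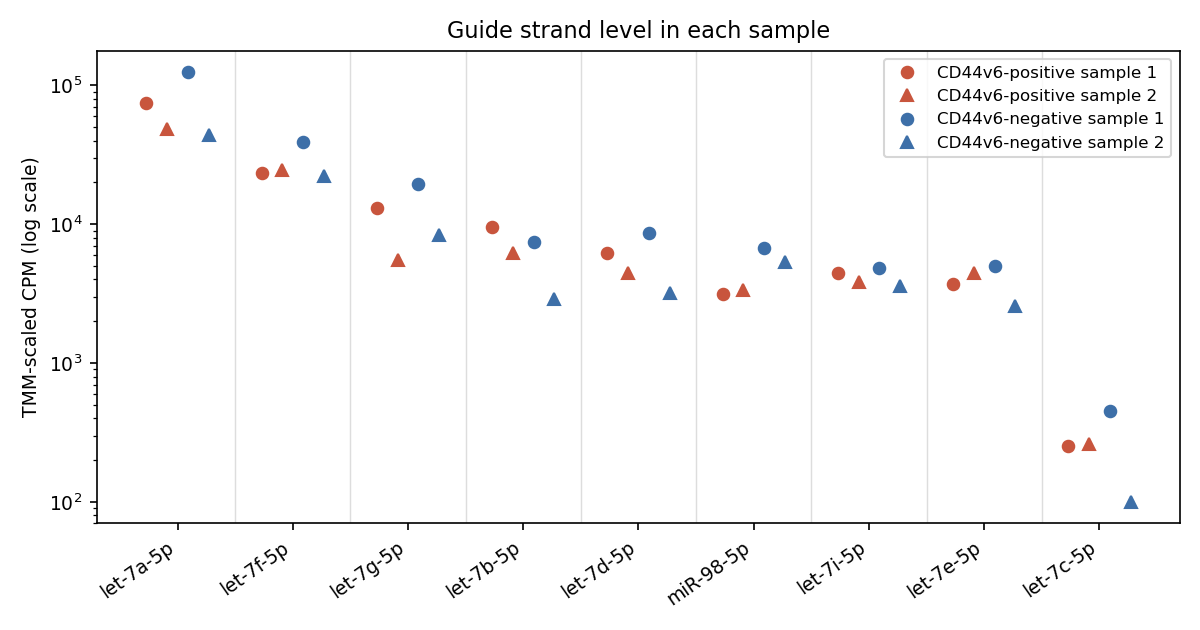
TMM-scaled CPM of each guide (vertical axis, log scale) in CD44v6-positive samples 1 and 2 and CD44v6-negative samples 1 and 2, with guides ordered by their mean level. CD44v6-negative sample 1 was highest for let-7a-5p at 124333 CPM, and miR-98-5p was the guide whose groups did not overlap.

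miR-98-5p was the 1 member of 9 whose levels did not overlap, against 59.5% of all tested miRNAs (34.6% lower and 24.9% higher). It was at 3163 and 3382 CPM in the CD44v6-positive samples, against 6737 and 5303 CPM in the CD44v6-negative samples. Its means were 3272 ± 155 CPM and 6020.2 ± 1014 CPM (SD, n = 2 each), a log2 fold change of -0.88 ± 0.42 (SE; 95% interval -1.90 to 0.14). In edgeR's quasi-likelihood test, adjusted by Benjamini-Hochberg over all 570 miRNAs, this gave an adjusted p of 0.215 and did not pass 0.05. It was the smallest adjusted p among the 9.

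None of the 9 passed in edgeR, as was true of all 570 tested miRNAs (0% called). At an unadjusted p under 0.05 there were 0 of 9 members, against 30.5% of all tested miRNAs. DESeq2 called 0 of 9, against 75 of the 525 miRNAs to which it gave an adjusted p (14.3%), and limma-voom 0 of 9, against 4 in all (0.702%). The intervals were wide. let-7b-5p had a log2 fold change of 0.61 ± 0.58 (SE), with a 95% interval of -0.79 to 2.00. For let-7a-5p the interval ran from -1.88 to 0.99, for let-7g-5p from -2.10 to 0.93, and for let-7c-5p, the widest, from -1.95 to 1.75. That of let-7i-5p ran from -1.05 to 1.03, so it held changes up to about that size in either direction.

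The values of the 9 lay around those of the table. Their median log2 fold change was -0.15, against -0.31 over all tested miRNAs. Of the 9, 7 lay below 0, against 55.4% of all tested miRNAs, but with total count scaling 2 of 9 did. let-7b-5p was above 0 and the highest of the 9 under the TMM, median-of-ratios, upper quartile, total count and guide pool scalings, and miR-98-5p was below 0 and the lowest of the 9 under the same scalings. Taken relative to the guide pool in edgeR, let-7b-5p had a log2 fold change of 0.98 ± 0.62 (adjusted p = 0.416) and miR-98-5p of -0.66 ± 0.64 (adjusted p = 0.623). No member passed in that fit, which called 2.81% of all tested miRNAs. Without CD44v6-positive sample 2, let-7b-5p was at 1.07 and miR-98-5p at -0.71 on the log2 scale. Without CD44v6-positive sample 1, let-7b-5p was at 0.16.

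**Figure D3:**
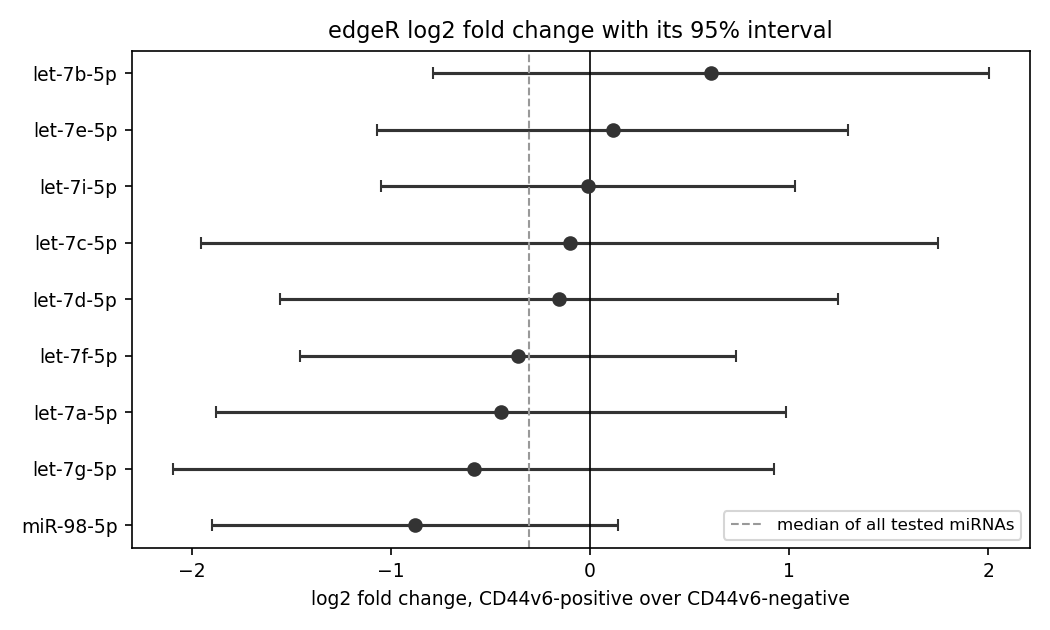
edgeR log2 fold change of CD44v6-positive over CD44v6-negative cells (horizontal axis) for the 9 guides, with 95% intervals as bars, a solid line at 0 and a dashed line at the median of all tested miRNAs, -0.31. let-7b-5p is highest at 0.61 and miR-98-5p lowest at -0.88, and every interval crosses 0.

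The order of the 9 log2 fold changes largely followed their base composition. let-7b-5p, with 10 G or C bases (45.5%), was at 0.61. The 4 members with 9 such bases (40.9%) were let-7e-5p at 0.11, let-7i-5p at -0.01, let-7c-5p at -0.10 and let-7d-5p at -0.15. Those with 8 (36.4%) were let-7a-5p at -0.45 and let-7g-5p at -0.58, and those with 7 (31.8%) were let-7f-5p at -0.36 and miR-98-5p at -0.88. Across the 9, Pearson's r was 0.887 and Spearman's rho 0.878. These members share the same 4 libraries and most of their bases, so the values describe the pattern only.

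A weaker relation of the same sign ran through the table. Over the 499 tested miRNAs with a RefSeq sequence (87.5%), Pearson's r was 0.455 and Spearman's rho 0.501. Other tested miRNAs within 2.5 percentage points of each class had median log2 fold changes of -1.62 at 31.8%, -1.53 at 36.4%, -1.33 at 40.9% and -0.50 at 45.5%. The median of the let-7 members lay above that of such miRNAs in each class, at -0.62, -0.52, -0.06 and 0.61. After a correction for base composition all 9 members were above 0, from 0.81 for let-7g-5p to 1.45 for let-7f-5p, against a median of 0.05 over all miRNAs, and none passed. The part of base composition in the differences between the groups was not tested further.

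**Figure D4:**
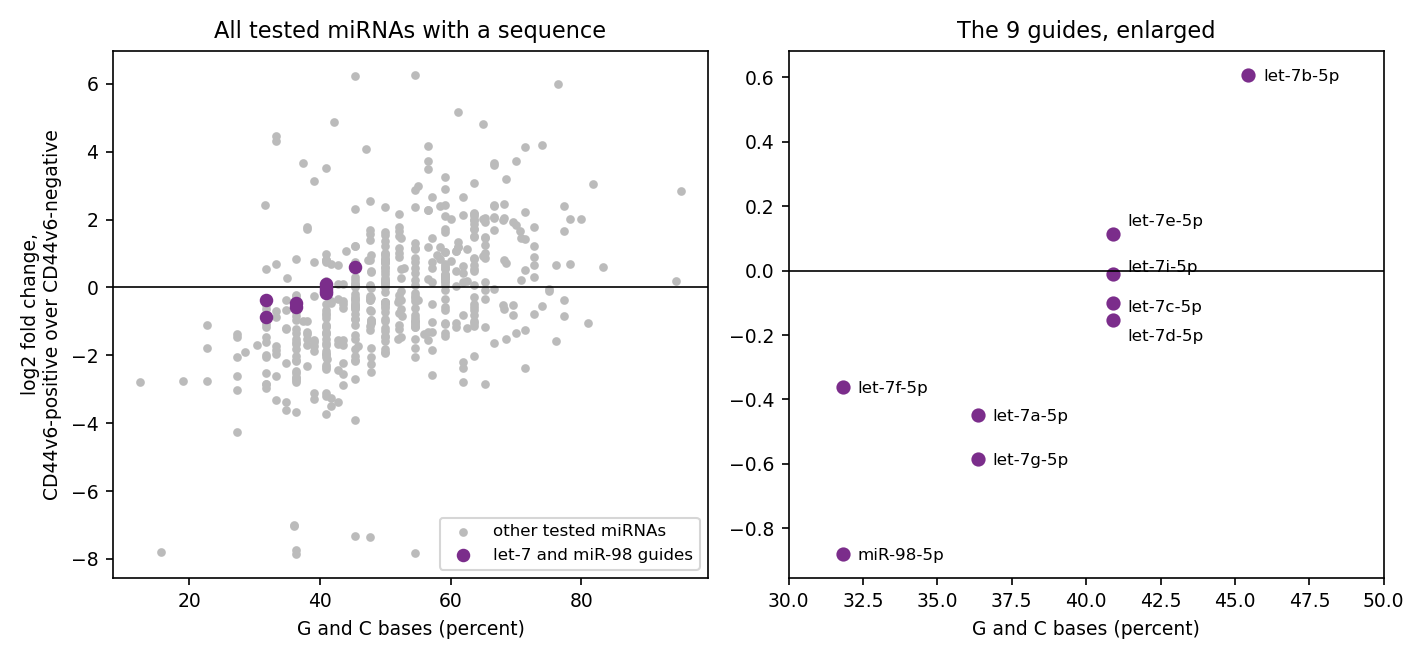
log2 fold change of CD44v6-positive over CD44v6-negative cells (vertical axes) against the percent of G and C bases of the mature miRNA (horizontal axes), for all tested miRNAs with a sequence (left) and for the 9 guides alone (right). From 31.8% to 45.5% the guides run from -0.88 for miR-98-5p to 0.61 for let-7b-5p.

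The hairpins of the members at the ends of that order are shown because of GGAG, the sequence that the zinc knuckles of LIN28 proteins are known to bind in let-7 precursors. The RNA is given 5′ to 3′ (RefSeq, GRCh38.p14), with the guide strand in capitals. MIRLET7G, a hairpin with GGAG, is set beside them.
MIRLET7B, chr22:46113686-46113768, plus strand: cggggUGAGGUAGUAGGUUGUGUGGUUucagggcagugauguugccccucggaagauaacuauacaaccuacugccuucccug
MIR98, chrX:53556223-53556341, minus strand: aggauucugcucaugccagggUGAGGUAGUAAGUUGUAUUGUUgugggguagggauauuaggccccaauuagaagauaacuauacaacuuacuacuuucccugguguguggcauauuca
MIRLET7G, chr3:52268278-52268361, minus strand: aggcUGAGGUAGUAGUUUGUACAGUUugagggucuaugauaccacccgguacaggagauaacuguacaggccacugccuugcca

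On the RNA strand GGAG occurred after the guide in 9 of the 12 hairpins, and in 43.4% of all 1562 RefSeq hairpins at any place. MIRLET7B, MIR98 and MIRLET7A3 held none. The guides made only from hairpins without these letters, let-7b-5p and miR-98-5p, had the highest and the lowest log2 fold change of the 9. Precursors are also sorted by whether they need an added uridine before Dicer cuts them, which pre-let-7a-2, pre-let-7c and pre-let-7e do not. Of the guides made only by those, let-7c-5p was at -0.10 ± 0.76 and let-7e-5p at 0.11 ± 0.49 on the log2 scale (SE), within the range of the others.

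Several let-7 hairpins share a primary transcript with members of the miR-99, miR-100 and miR-125 families, and miR-99 and miR-100 are known to repress mTOR. Of the 5 such partners with an entry, none passed in edgeR. miR-99b-5p and miR-125a-5p, transcribed with let-7e, were at -0.66 ± 0.42 and 0.50 ± 0.57 on the log2 scale (SE), on either side of let-7e-5p. miR-99a-5p, from the transcript of let-7c, was at 0.02 ± 0.87, and miR-125b-5p, made with both let-7c and let-7a-2, at 0.61 ± 0.79. miR-100-5p, made with let-7a-2, was at 89577 and 37981 CPM in the CD44v6-positive samples, against 272410 and 81508 CPM in the CD44v6-negative samples. Its groups overlapped and its log2 fold change was -1.47 ± 0.72, against -0.45 ± 0.59 for let-7a-5p. Partners from 1 transcript thus had values of both signs.

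The passenger strands of these hairpins took 0.748% and 1.03% of the hairpins' reads in the CD44v6-positive samples, against 0.387% and 1.16% in the CD44v6-negative samples. Of the 10 tested passenger entries, 6 were lower without overlap (34.6% of all tested miRNAs) and 1, let-7d-3p, was higher (24.9%), at 754 and 808 CPM against 359 and 422 CPM. All of the lower ones but let-7a-3p, with 12 reads, were thinly read in CD44v6-positive sample 2, where let-7i-3p had 0 reads, let-7a-2-3p and let-7g-3p had 1 each, and let-7f-1-3p and let-7f-2-3p had 2 each, all under the 3 reads that a count of 0 allows.

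Among 180 miRNAs outside the family with a mean of at least 100 CPM, the 5 whose centred log2 CPM over the 4 samples lay nearest to that of the summed guides were miR-27a-5p (Euclidean distance 0.0575), miR-342-3p (0.195), miR-589-5p (0.422), miR-107 (0.433) and miR-151b (0.440). The guide sum was at 138165 and 101399 CPM in the CD44v6-positive samples, against 215953 and 92010.1 CPM in the CD44v6-negative samples. Like it, each was highest in CD44v6-negative sample 1 on the TMM scale, where that sample had the lowest factor. The mean guide sum was lower in CD44v6-positive samples on that scale, at 119782 against 153982 CPM. As a share of all reads it was not, at 13.3% against 12.7%. With 4 samples, such likeness describes these libraries only.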

How the data were processed

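Mature miRNAs were measured by small RNA sequencing in sorted HCT116 spheroid cells. The authors deposited a table of raw counts, in whole numbers, and a second table of normalized signal. The second equals the first with every column divided by its own constant, was checked for that, and was not used further. The tools named are Bowtie 0.12.9, DESeq2, cutadapt 1.10 and CASAVA 1.8.2 and build GRCh38, per the submitters' processing notes. What each tool did, and the miRNA annotation, is not given in the sources. The 8 sequencing entries carry 4 combined identities, and per the file headers each column holds 1 of them, so n was 2 per group.

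The main test was the quasi-likelihood test of edgeR 4.0.16 (glmQLFit and glmQLFTest after estimateDisp, R 4.3.3) on raw counts of all miRNAs, with TMM scaling, filterByExpr at a minimum count of 10 and total of 15, and Benjamini-Hochberg adjustment over the 570 tested at 0.05. Standard errors follow from the size of the log2 fold change and the F statistic (their ratio after taking the root of F). The 95% interval uses the fit's total degrees of freedom, which are the residual ones plus those borrowed across miRNAs. Residual degrees of freedom alone would give wider intervals. Shares of the guide pool were compared by exact permutation. Scripts were tested on simulated data. Alternatives used DESeq2 1.42.0, limma 3.58.1 (voom), other scalings and filters, a loess correction for G and C content, the replicate number as a block, and each sample left out. Hairpin positions and sequences came from RefSeq and host genes from GENCODE release 29, both on GRCh38, and all 9 guides matched by name. Adapter ligation favours some RNA ends, so levels of different miRNAs compare reads rather than molecules. The text names the 9 guides, entries with their seed, partners from shared transcripts, and the 5 nearest profiles. The partner miR-4763-3p was not analysed here. Of the marker lists for other tissues, single miRNAs were picked out after their values were seen. The members and lists were chosen with earlier results of these data known.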

Additional observations from a re-analysis of the deposited data

How the results depend on the processing

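The number of guides called was 0 in edgeR as reported and in 9 of the 10 other settings that kept all samples. Some of these settings did call other miRNAs. Besides DESeq2 and limma-voom, total count scaling called 48 of 570 and the guide pool as library size 16 of 570. With no filter 77 of 1510 passed, and with the correction for base composition 1 of 570. Median-of-ratios scaling, upper quartile scaling and the 10 CPM filter called 0. Fits with 1 sample left out rest on 1 sample in a group, so their calls are not counted here. The exception among the 10 was the fit with the replicate number as a block. It called 2 guides, let-7b-5p higher and miR-98-5p lower (smallest adjusted p 0.0152), and 228 of the 570 miRNAs. The numbers are not known to pair the samples. Deviations of same-numbered samples from their group means correlated at 0.375, and those of differently numbered samples at -0.375. With 2 samples per group these are the same value with its sign turned, so they cannot settle a pairing. The share of the guide pool in all reads differed by 0.575 percentage points over tested miRNAs, by 0.901 without the most abundant other miRNA, and by -1.06 to 2.21 with 1 sample left out. Members without overlap in share numbered 2 with passenger reads in the denominator, 3 without let-7a-5p, and 5 to 7 with 1 sample left out, since a lone sample overlaps less easily. The share of all tested miRNAs without overlap was 49.5% relative to the whole pool. It was not computed for these variants, so their counts cannot be set against the table at large.

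Several log2 fold changes changed sign, all without a call, and with the correction for base composition these included that of miR-98-5p; for scaling, filter and tool the cause was not tested. With total count scaling let-7a-5p was 0.0075, let-7c-5p 0.46, let-7d-5p 0.30, let-7f-5p 0.032 and let-7i-5p 0.31. With upper quartile scaling let-7c-5p was 0.22, let-7d-5p 0.18 and let-7i-5p 0.32, and with the guide pool as library size 0.47, 0.24 and 0.21. With limma-voom they were 0.28, 0.020 and 0.014, and with the 10 CPM filter 0.14, 0.071 and 0.21. let-7i-5p was 0.024 with DESeq2 and 0.024 with median-of-ratios scaling. With the replicate block let-7c-5p was 0.24 and let-7i-5p 0.0020. With no filter let-7e-5p was -0.35. With the correction for base composition let-7a-5p was 0.96, let-7c-5p 0.95, let-7d-5p 0.88, let-7f-5p 1.45, let-7g-5p 0.81, let-7i-5p 1.01 and miR-98-5p 0.94. With 1 sample left out let-7a-5p ran from -0.89 to 0.57, let-7b-5p from 0.16 to 1.51, let-7c-5p from -0.64 to 1.43, let-7d-5p from -0.53 to 0.80, let-7e-5p from -0.10 to 0.73, let-7f-5p from -0.54 to 0.17, let-7g-5p from -1.44 to 0.22, let-7i-5p from -0.24 to 0.31 and miR-98-5p from -0.95 to -0.63. Without CD44v6-negative sample 1, 1 of 9 lay below 0, and without CD44v6-positive sample 2, 2 of 9. Depth limits let-7c-5p most, at 50 reads in CD44v6-positive sample 2.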
